A study of Mus musculus with 20 samples.

Results

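The 34 genes described here encode peroxins, peroxisomal membrane proteins and peroxisomal enzymes of the mouse. They were listed by name, with earlier results of these data known, and all 34 were found in a table of 49315 genes. The RNA came from livers of 20 mice with DIO NASH, a steatohepatitis produced by diet, and every mouse of both groups was kept on the AMLN diet, which is rich in fat, sugar and cholesterol. One group of 10 mice received S217879 by mouth (30 mg/kg, once daily) and the other 10 received the vehicle alone (hydroxyethylcellulose, HEC, 1%), both for 8 weeks. The series title describes the treatment as a selective disruption of the binding of NRF2, a transcription factor of the antioxidant response, to its inhibitor KEAP1. No genotype or transgene is named, and the sources used here give neither strain nor sex nor age. Each library is whole liver of 1 separately numbered mouse, at 1 dose and 1 time, and no group on another diet is part of the comparison.

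Peroxisomes are single-membrane organelles that shorten fatty acids too long or too branched for mitochondria, finish the side chain of bile acids, begin ether lipid synthesis and break down the hydrogen peroxide that their oxidases release. Their proteins are made in the cytosol and imported by peroxins. Soluble receptors carry enzymes to a docking complex, a ubiquitin ligase and an ATPase pull the receptors out again, and a separate set inserts membrane proteins. In hepatocytes many of these genes respond to fatty acids through the nuclear receptor PPARα.

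Values are TPM as deposited (each gene's share of its library, corrected for transcript length), so the depth behind them is unknown and only the spread between mice limits them. A gene is called where limma's adjusted p on log2(TPM + 0.5) was under 0.05 over the 13401 genes whose mean reached 1 TPM. All 34 peroxisomal genes passed that minimum, at means from 2.16 TPM (Far1) to 2714 TPM (Acaa1b), and the hepatocyte markers were abundant in all libraries (summed over 8 genes, 30660 to 67720 TPM in vehicle and 36820 to 57130 TPM in S217879). Vehicle replicates 6 and 7 stood apart. The 4 rRNA-type genes held 58.2% and 50.7% of their TPM, against 17.4% to 31.4% in the other vehicle libraries and 14.1% to 38.1% in S217879. These libraries were the 2 lowest of vehicle for 33 of the 34 genes. The median coefficient of variation of the 34 genes in vehicle was 21.9%, 8.9% without those 2 libraries, and 10.6% after median-of-ratios scaling of the libraries. In S217879 it was 14.3% as deposited. The factors by which that scaling divides each library (size factors) also differed between the groups. They were 1.047 to 1.228 in vehicle apart from replicates 6 and 7, and 0.840 to 1.142 in S217879. Dividing by them raises S217879 relative to those vehicle libraries. The cause of this difference was not tested. For both reasons, directions are given below on the deposited and on the scaled values.

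Livers given S217879 had about 2.1 times the vehicle level of Acox2, the oxidase of branched-chain acyl-CoA and bile acid intermediates, and 0.471 times the vehicle level of Abcd2, a transporter of very long-chain acyl-CoA. Hacl1, the lyase of fatty acid alpha-oxidation, rose 1.52-fold and Pecr, a peroxisomal enoyl-CoA reductase, rose 1.39-fold. The other 30 genes were not called, and none of the 13 peroxins was. Thus 3 of 34 genes were higher, where 6.07% of all tested genes were, and 1 was lower, where 23.5% were. The median log2 difference of the 34 genes was -0.011, beside -0.12 over all tested genes. In 1 gene all S217879 libraries lay above all vehicle libraries (Acox2, background 1.84%), and in 1 gene all lay below (Abcd2, background 1.89%).

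How many of the remaining genes were called, and in which direction, depended on how the libraries were scaled. With median-of-ratios scaling 18 genes were higher (background 30.8%) and 1 was lower (background 22.7%), with a median log2 difference of 0.14 against 0.023 over all genes. In 6 genes the scaled groups did not overlap with S217879 above (background 8.65%), namely Acox2, Pecr, Pex7, Pex3, Pex19 and Gnpat. Quantile normalization gave 11 higher (background 26.4%) and 8 lower (background 25.0%). Rescaling without the rRNA-type genes gave 6 higher (background 7.15%) and 17 lower (background 63.1%), at a median of -0.15 against -0.26 over all genes. Without vehicle replicates 6 and 7, 3 were higher (background 5.56%) and 15 lower (background 54.4%). Weighting the libraries by their quality gave 3 higher (background 7.20%) and 16 lower (background 59.9%). Scaling by median-of-ratios and leaving out both libraries gave 16 higher (background 26.9%) and 3 lower (background 21.1%), the latter being Abcd2, Scp2 and Hao1. The exact Wilcoxon rank-sum test gave 4 higher (background 6.22%) and 2 lower (background 24.1%). Acox2, Hacl1, Pecr and Abcd2 were called in the same direction in all 33 alternative settings. Below, a gene is described as uncalled on the deposited values, and after scaling means median-of-ratios scaling alone. Several genes uncalled on both were called lower in other settings, among them Pex2, Pex6, Pex10, Pex11a, Pxmp4, Acox3, Amacr and Ddo.

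**Figure D1:**
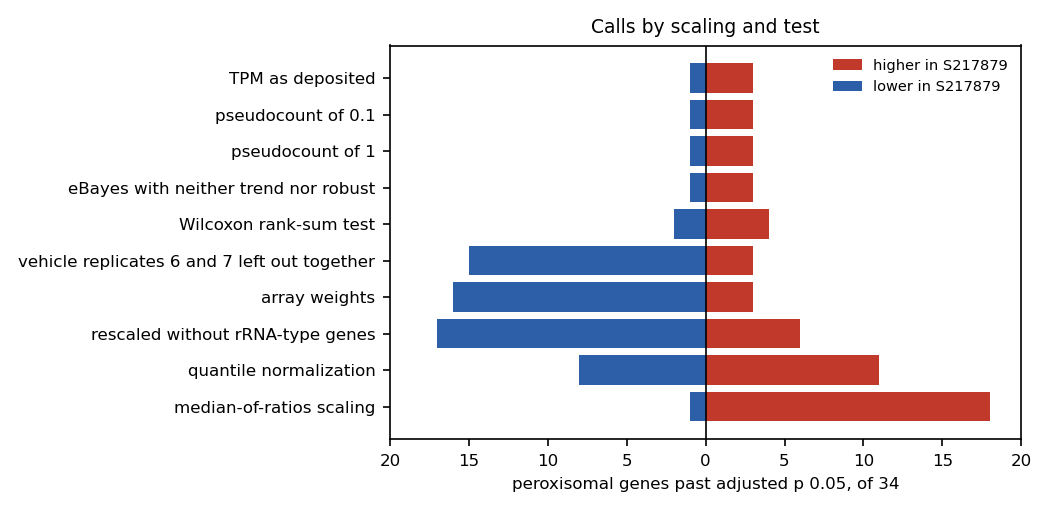
Number of the 34 peroxisomal genes called higher (red, to the right) or lower (blue, to the left) in S217879 at adjusted p under 0.05, for each scaling, weighting and test (rows). The deposited TPM gave 3 higher and 1 lower, median-of-ratios scaling 18 higher and 1 lower, and rescaling without rRNA-type genes 6 higher and 17 lower.

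**Figure D2:**
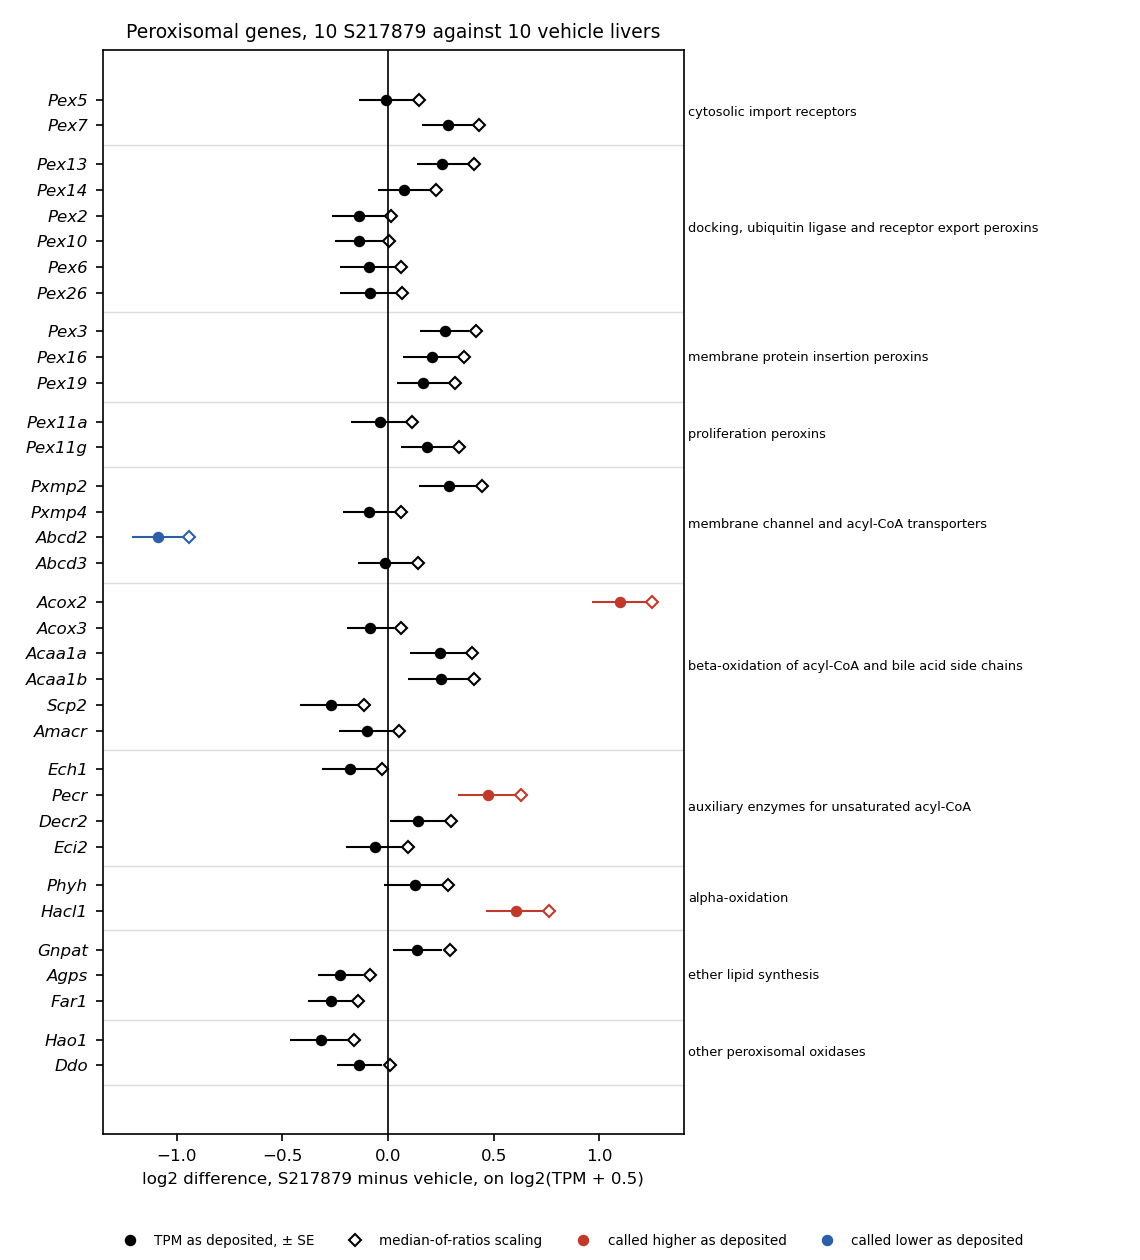
Log2 difference, S217879 minus vehicle on log2(TPM + 0.5), for each of the 34 genes grouped by role, 10 libraries per group. Filled circles with bars give the deposited values ± SE and open diamonds the values after median-of-ratios scaling. Acox2, Hacl1 and Pecr (red) were called higher and Abcd2 (blue) lower. The scaled points lie to the right of the deposited ones.

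Import begins with PEX5 and PEX7, the cytosolic receptors of the peroxisomal targeting signals at the end and near the start of enzymes. Pex5 had 48.8, 87.7 and 96.3 TPM (lowest, median and highest library) in vehicle and 54.3, 84.6 and 89.0 TPM in S217879. Its groups overlapped almost wholly, with a log2 difference of -0.0087 ± 0.13 (SE, adjusted p = 0.968, limma). Pex7 had 5.92, 11.4 and 12.6 TPM in vehicle and 9.85, 12.7 and 17.1 TPM in S217879. Of the S217879 libraries 6 were above all vehicle libraries, and the log2 difference was 0.28 ± 0.12 (adjusted p = 0.0723). After scaling both receptors were called higher, Pex7 by 0.43 with groups that did not overlap and Pex5 by 0.15 with groups that did. Rescaled without the rRNA-type genes, Pex5 was called lower instead.

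The docking complex holds PEX13 and PEX14, PEX2 and PEX10 are subunits of the ubiquitin ligase, and PEX6 with its membrane anchor PEX26 belongs to the export ATPase. None of these 6 genes was called, with log2 differences from -0.14 (Pex2) to 0.26 (Pex13). Pex14 had 12.4, 21.1 and 24.0 TPM in vehicle and 13.8, 21.01 and 22.2 TPM in S217879, a log2 difference of 0.074 ± 0.12 (adjusted p = 0.697). Pex13 had a median of 22.8 TPM in vehicle and 24.7 TPM in S217879, and 5 S217879 libraries were above all vehicle libraries. After scaling, both docking genes were called higher (0.41 for Pex13 and 0.23 for Pex14), while the other 4 were not called and lay between 0.0026 and 0.067. Pex10 and Pex2 had the 2 lowest log2 differences of the 13 peroxins on both scales.

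Membrane proteins are inserted by PEX3, PEX16 and the chaperone PEX19. All 3 genes had positive log2 differences as deposited (0.27 for Pex3, 0.21 for Pex16 and 0.17 for Pex19), and none was called. Pex3 had a median of 10.4 TPM in vehicle and 11.1 TPM in S217879, and 4 S217879 libraries exceeded every vehicle library. Scaled, all 3 were called higher, by 0.42, 0.36 and 0.32, and the groups of Pex3 and Pex19 did not overlap. Pex19 ran from 59.1 to 71.1 in vehicle and from 77.9 to 87.2 in S217879 on that scale. Pex3 overlaps the gene Adat2, Pex16 overlaps Large2 and Pex13 overlaps Pus10, so reads there cannot be assigned with certainty where strand was not used.

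PEX11 proteins elongate the membrane when peroxisomes divide. Pex11a, the form that fatty acids and fibrates induce, had 63.3, 113 and 139 TPM in vehicle and 74.1, 102 and 145 TPM in S217879, a log2 difference of -0.039 ± 0.14 (adjusted p = 0.863). Of its S217879 libraries 8 were below the vehicle median and 1 was above the highest vehicle library. Pex11g, at a median of 18.3 TPM in vehicle and 19.5 TPM in S217879, had a log2 difference of 0.19 and was not called either. Pex11a was not called after scaling, whereas Pex11g then was (0.34).

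Among the membrane transporters, Abcd2 was lower in every S217879 library than in any vehicle library. It had 8.54, 13.3 and 17.3 TPM in vehicle and 3.95, 5.89 and 8.21 TPM in S217879. The 2 lowest vehicle values came from replicates 6 and 7, and without them the lowest was 10.3 TPM. The log2 difference was -1.09 ± 0.12 (adjusted p = 5.34e-09), and -0.94 after scaling. The gene lies at chr15:91145871-91191799 (GRCm38, minus strand) and overlaps no other annotated gene. ABCD2 is known to be abundant in fat. Of the 4 listed fat cell markers, Adipoq, Plin1 and Lep did not exceed 0.0744 TPM in any library, and Cidec had means of 150.4 ± 30.2 (SD) TPM in vehicle and 136.6 ± 33.6 TPM in S217879 and was not called (adjusted p = 0.463). With the other fat cell markers so low, Cidec alone cannot be read as a sign of fat cells here. Markers of other cells moved in both directions, beside 23.5% of all tested genes lower and 6.07% higher. Of the macrophage genes 5 of 7 were called lower (summed level 714.5 to 1404 TPM in vehicle, 573.9 to 1064 TPM in S217879), of the stellate cell genes 7 of 7 (265.4 to 495.8 against 197.3 to 378.7 TPM), and of the cholangiocyte genes 2 of 4 tested (177.7 to 465.8 against 89.3 to 243.1 TPM). None of these defining markers was at 0. The called cholangiocyte genes were Epcam and Spp1, and Krt19 and Sox9 were not called. Spp1 alone had means of 286.2 TPM in vehicle and 144.1 TPM in S217879, so the cholangiocyte sum mainly follows this gene. Of the endothelial genes 3 of 6 were called higher (Lyve1, Kdr and Clec4g) and none lower (64.0 to 135.1 against 115.0 to 154.1 TPM). Of the 8 hepatocyte genes 2 were higher (Ttr and Asgr1) and 2 lower (Apoa1 and Hpx), and of the 3 tested lymphoid genes none was called. The part of other cells in the Abcd2 difference was not tested. In whole liver, fewer cells of a type and less RNA per cell cannot be told apart.

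Abcd3, the transporter of branched-chain acyl-CoA and bile acid intermediates and the most abundant of the group, had 91.7, 174 and 198 TPM in vehicle and 139, 157 and 207 TPM in S217879. The groups overlapped and the log2 difference was -0.014 ± 0.13 (adjusted p = 0.952). Pxmp2, a channel for small metabolites, had 59.1, 127 and 154 TPM in vehicle and 113, 132 and 177 TPM in S217879, a log2 difference of 0.29 (adjusted p = 0.118). Pxmp4 had a log2 difference of -0.091 and was not called. With scaling Pxmp2 (0.44) and Abcd3 (0.14) were called higher. Abcd3 was called lower with quantile normalization, with array weights, without vehicle replicates 6 and 7, and after rescaling without rRNA-type genes.

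**Figure D3:**
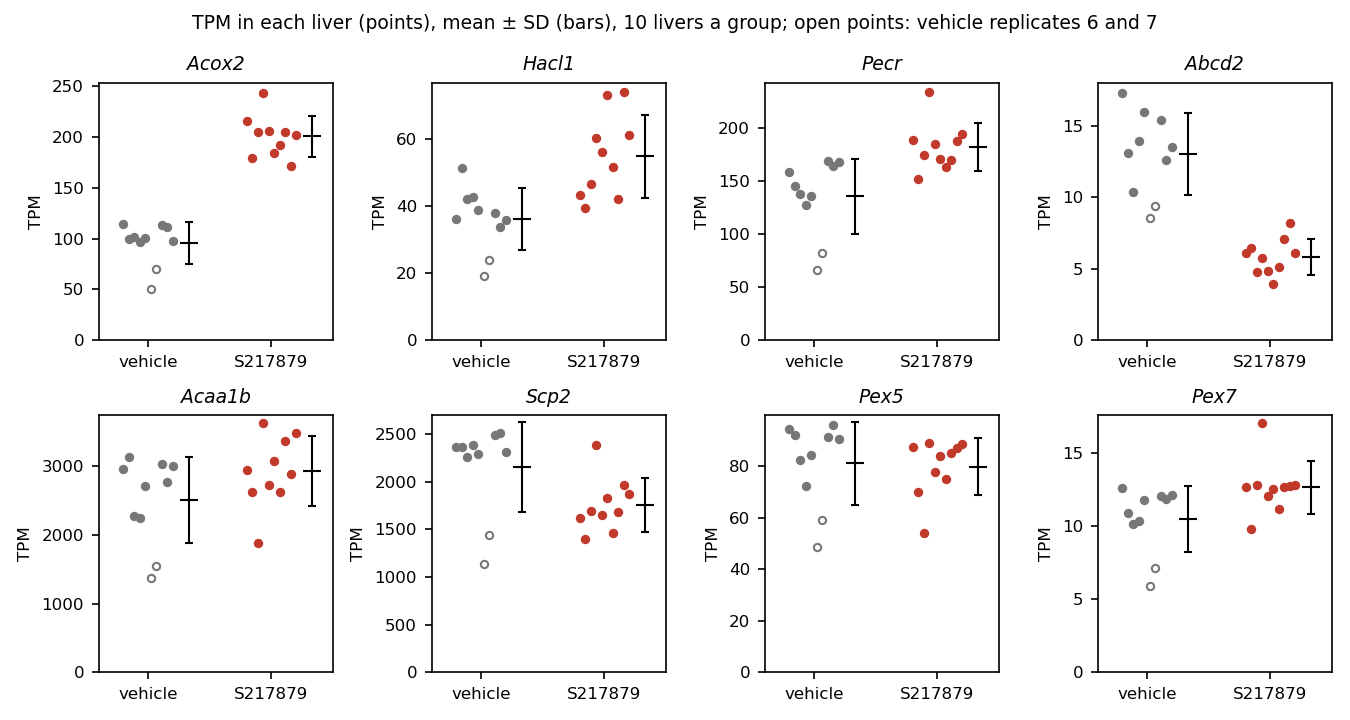
TPM in each liver (points) for 8 peroxisomal genes in 10 vehicle (grey) and 10 S217879 (red) mice, with mean ± SD beside them. Open points are vehicle replicates 6 and 7. For Acox2 and Abcd2 the groups do not overlap, for Hacl1 and Pecr they overlap in part, and for Pex5 they cover the same range.

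In beta-oxidation, Acox2 showed the largest rise of the 34 genes. It had 50.1, 100 and 114 TPM in vehicle and 172, 204 and 244 TPM in S217879. The lowest S217879 library stood well above the highest vehicle library, and vehicle replicates 6 and 7 were the 2 lowest. The log2 difference was 1.10 ± 0.13 (adjusted p = 1.37e-08), 1.25 after scaling, and 1.00 to 1.13 as each library was left out in turn. The gene lies at chr14:8225511-8259353 (GRCm38, minus strand), overlaps no other gene, and shares no 50-base stretch with another gene's transcripts.

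Promoter windows of 300 bases (250 before to 50 after a start, RefSeq, GRCm38.p6) were found for 29 of the 34 genes and searched on both strands for TGACNNNGC, the core of the element that NRF2 binds. These genes had 34 windows, some with more than 1 start. The match was present in 6 of the 34 windows, from 5 genes, and in 12.4% of all 32851 such windows. Both windows of Acox2 hold the same site. These sites are shown because Acox2 was called as deposited and the 4 other genes were not. Each is given 5′ to 3′ on the gene's strand with the 9 matching bases in capitals. For some sites the match is on the other strand and is read backwards.
Acox2: aagcctggaaGCTGAGTCAtgccagagtt
Pex7, proximal: ccgggcgtcgGCGTCGTCActtccgcccg
Pex7, distal: aatggtcctcGCGGCGTCAgttccctttt
Pex11g: caaaggagttTGACCCCGCcctgggtgac
Scp2: gccccgccccTGACGCTGCggccccgccc
Hao1: cccctGCTTTGTCAgtgtgaccaa
The Acox2 site lies at chr14:8259024-8259032, 13 bases before 1 RefSeq start and 193 bases before another, within an untranslated exon of the transcript Acox2-204. The Pex7 sites begin 15 and 72 bases before the start (chr10:19907681-19907689 and chr10:19907738-19907746). The proximal one is in an untranslated exon and the distal one is in no annotated gene. The Pex11g site (chr8:3467659-3467667, in an untranslated exon) begins 19 bases, the Scp2 site (chr4:108118545-108118553, in an intron) 6 bases, and the Hao1 site (chr2:134554589-134554597, in no annotated gene) 245 bases before the start. The windows of Hacl1 and Pecr held no match, and no window was found for Abcd2. For the element of PPARα, a direct repeat of AGGTCA with 1 base between, no member window held an exact match (0.0396% of all windows did). With up to 2 mismatches 1 of the 34 windows matched, that of Acox2 (3.86% of all windows did), 9 bases after the start nearer to its coding part.

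Of the other beta-oxidation genes none was called as deposited. Acox3, the second branched-chain oxidase, had 4.30, 7.79 and 8.63 TPM in vehicle and 5.65, 6.58 and 7.95 TPM in S217879, a log2 difference of -0.085 ± 0.11 (adjusted p = 0.608). Acaa1b, a thiolase and the most abundant of the 34 genes, had 1379, 2745 and 3136 TPM in vehicle and 1877, 2913 and 3627 TPM in S217879, a log2 difference of 0.25 (adjusted p = 0.231). Its paralog Acaa1a had a median of 133 TPM in vehicle and 147 TPM in S217879 and a log2 difference of 0.24. The pair share sequence, since 30.5% of the 50-base stretches of Acaa1b transcripts also occur in Acaa1a, and how reads matching both were counted is not given, so the division between them is uncertain. Both were called higher after scaling (0.41 and 0.40).

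Scp2 encodes both a thiolase for branched chains and a lipid carrier. It had 1137, 2338 and 2507 TPM in vehicle and 1398, 1686 and 2387 TPM in S217879. In 9 of 10 S217879 libraries it lay below the vehicle median, and apart from vehicle replicates 6 and 7 only 1 S217879 library reached the vehicle range. The log2 difference was -0.27 ± 0.15 (adjusted p = 0.164), and -0.37 when vehicle replicate 6 was left out (adjusted p = 0.00951). It was -0.12 and not called with median-of-ratios scaling. A pseudogene, Scp2-ps2, shares 29.7% of the 50-base stretches of Scp2. Amacr, the racemase that prepares branched substrates, had a median of 102.5 TPM in vehicle and 86.7 TPM in S217879 and was not called (log2 difference -0.10). Acaa1b, Scp2 and Phyh together made up 70.0% to 74.0% of the summed TPM of the 34 genes in each library. The sum took on average 0.790% ± 0.179 (SD) of a vehicle library and 0.814% ± 0.105 of an S217879 library, which differ by less than either SD.

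Unsaturated chains need auxiliary enzymes. Pecr, which reduces enoyl-CoA, had 66.2, 142 and 170 TPM in vehicle and 153, 180 and 235 TPM in S217879. All 10 S217879 libraries were above the vehicle median and 8 were above the highest vehicle library. The log2 difference was 0.47 ± 0.14 (adjusted p = 0.0104), and 0.63 after scaling, where the groups did not overlap. Pecr lies at chr1:72259167-72284314 (minus strand) and overlaps the noncoding gene D230017M19Rik on the opposite strand, which had 2.72 TPM in vehicle and 2.62 TPM in S217879. Decr2, a dienoyl-CoA reductase, had a log2 difference of 0.14, the isomerases Ech1 and Eci2 had -0.18 and -0.062, and none was called. Ech1 had a median of 271.5 TPM in vehicle and 211 TPM in S217879, with all 10 S217879 libraries below the vehicle median, and adjusted p was 0.323. Decr2 was called higher after scaling and the isomerases were not. Both isomerases were called lower with quantile normalization, with array weights, without vehicle replicates 6 and 7, and after rescaling without rRNA-type genes. Ech1 was also called lower without vehicle replicate 6 alone.

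Alpha-oxidation removes 1 carbon from phytanic acid and similar chains, by the hydroxylase PHYH and then the lyase HACL1. Hacl1 had 19.1, 37.1 and 51.2 TPM in vehicle and 39.3, 53.8 and 73.8 TPM in S217879. All 10 S217879 libraries were above the vehicle median and 6 were above the highest vehicle library. The log2 difference was 0.61 ± 0.15 (adjusted p = 0.00143), and 0.76 after scaling. Hacl1 lies at chr14:31598730-31641286 (minus strand) and overlaps Btd, which had 42.8 TPM in vehicle and 43.2 TPM in S217879 (adjusted p = 0.889), and a read-through model, Gm49387, that has no row of its own under that symbol. Phyh, upstream in the same pathway, had 546.5, 1185 and 1481 TPM in vehicle and 994, 1184 and 1595 TPM in S217879. Its medians were nearly equal, its log2 difference was 0.13 ± 0.15 (adjusted p = 0.552), and it was called higher by 0.28 after scaling.

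Ether lipids start with the acyltransferase GNPAT and the synthase AGPS, and FAR1 supplies the fatty alcohol. None of the 3 genes was called. Gnpat had medians of 29.5 and 29.3 TPM (vehicle, then S217879) and a log2 difference of 0.14. Agps had 4.69 and 3.78 TPM (-0.23), and Far1 had 2.40 and 1.74 TPM (-0.27, adjusted p = 0.0586). For Agps and for Far1, 9 of 10 S217879 libraries lay below the vehicle median. Gnpat was called higher after scaling, with groups that did not overlap, and the other genes stayed negative and uncalled. Far1 was lower with an adjusted p of 0.0484 by the exact Wilcoxon rank-sum test.

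Of the other oxidases, Hao1, which makes glyoxylate from glycolate, had 59.3, 130 and 154 TPM in vehicle and 70.0, 90.3 and 142 TPM in S217879. It was below the vehicle median in 9 of 10 S217879 libraries, and the log2 difference was -0.32 ± 0.15 (adjusted p = 0.10). It was called lower without vehicle replicate 6, without vehicle replicate 7 and without S217879 replicate 4, with log2 differences from -0.43 to -0.27 over all libraries left out, and it was -0.16 and not called after scaling. Ddo, the oxidase of D-aspartate, had a log2 difference of -0.14 and was not called on either scale.

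A ratio of 2 genes within 1 library depends little on how the library was scaled, and only through the added constant of 0.5 TPM, which matters most for low genes such as Agps. For paralogs or partners 6 such ratios, on TPM + 0.5, were compared with a two-sided permutation test of 100000 resamples, adjusted over the 6, and 2e-05 is the smallest p such a test can give. Acox2 over Acox3 was 10.5, 12.6 and 13.9 (lowest, median, highest) in vehicle and 21.2, 29.0 and 31.0 in S217879. The groups did not overlap and the ratio was 2.27-fold higher (adjusted p = 4e-05). Abcd2 over Abcd3 ran from 0.0633 to 0.105 in vehicle and from 0.0285 to 0.0547 in S217879, again without overlap (fold 0.475, adjusted p = 4e-05). Pex5 over Pex7, the balance of the import receptors, had a median of 7.49 in vehicle and 6.49 in S217879 (fold 0.818, adjusted p = 4e-05), and S217879 replicates 3 and 4 were its lowest libraries. Its groups overlapped, with a lowest vehicle ratio of 6.709 and a highest S217879 ratio of 6.805. Gnpat over Agps rose from a median of 5.81 to 7.22 (fold 1.29, adjusted p = 0.00021) and Pex11a over Pex11g fell from 6.23 to 5.48 (fold 0.856, adjusted p = 0.0053), with overlapping groups in both. Acaa1b over Acaa1a was 19.7 in vehicle and 20.4 in S217879, and its difference of 0.0068 ± 0.060 (log2, SE) was not called (adjusted p = 0.904). A called ratio shows unequal change of its 2 genes and not which of them moved.

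**Figure D4:**
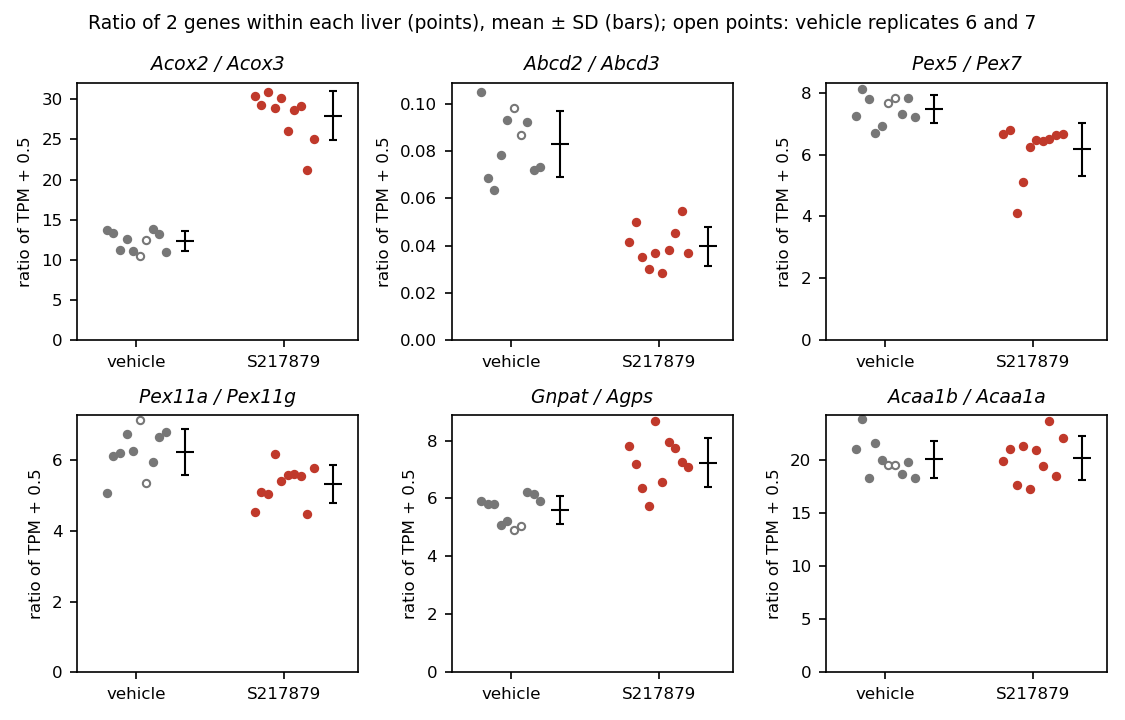
Ratio of 2 peroxisomal genes within each liver (points, TPM + 0.5 on a linear axis from 0), with mean ± SD, for 10 vehicle (grey; replicates 6 and 7 open) and 10 S217879 (red) mice. The groups are apart for Acox2 over Acox3 and Abcd2 over Abcd3, and replicates 6 and 7 lie within or next to the other vehicle libraries. For Gnpat over Agps they are the 2 lowest of vehicle.

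A further 64 genes were listed by function, covering peroxisomal proteins, peroxisome division and turnover, and 7 genes of transcription factors or coactivators. Of the 64, 56 reached the minimum. Of these 6 were higher and 5 lower as deposited (background 6.07% and 23.5%), and 37 were higher and 3 lower after scaling (background 30.8% and 22.7%). The largest rise was in Mpv17l, a peroxisomal membrane protein, from a mean of 5.58 ± 1.33 (SD) to 15.9 ± 2.20 TPM (log2 difference 1.46). Cat, the catalase that removes hydrogen peroxide, rose from 1401 ± 345 to 3609 ± 318 TPM (1.41). Slc25a17, a carrier of coenzyme A and nucleotides, rose from 48.8 ± 9.54 to 95.2 ± 15.1 TPM (0.97), and Ehhadh, the bifunctional enzyme of beta-oxidation, from 303 ± 77.6 to 531 ± 56.8 TPM (0.85). Smaller rises were in Lonp2, a matrix protease (0.63), and Acbd5, a membrane tether (0.53). In 5 of the 56 genes all S217879 libraries were above all vehicle libraries (background 1.84%), namely the 4 largest rises and Lonp2, whose lowest S217879 library had 165.7 TPM and whose highest vehicle library had 162.2 TPM.

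The largest falls were in Acot3 (log2 difference -1.16), Ppargc1a (-0.53), Nudt7 (-0.40) and Acot4 (-0.37), followed by Paox (-0.35). Acot3 and Acot4 are acyl-CoA thioesterases, NUDT7 degrades coenzyme A, and Ppargc1a encodes a coactivator of PPARα. The calls of Acot4, Nudt7 and Paox were lost in 17, 19 and 18 of 33 alternatives, many of which leave out 1 library, and those of Acot4 and Nudt7 also after scaling (-0.22 and -0.25). Those of Acot3 and Ppargc1a were kept in each alternative that tested them (33 and 32). Hsd17b4, the other bifunctional enzyme of beta-oxidation, had means of 352 ± 76.9 and 379 ± 43.7 TPM (vehicle, then S217879) and was not called (log2 difference 0.14, adjusted p = 0.476). Ppara, the gene of PPARα, was not called either (-0.26, adjusted p = 0.111). None of the 7 genes of peroxisome division and turnover was called as deposited, with log2 differences from -0.12 to 0.063.

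**Figure D5:**
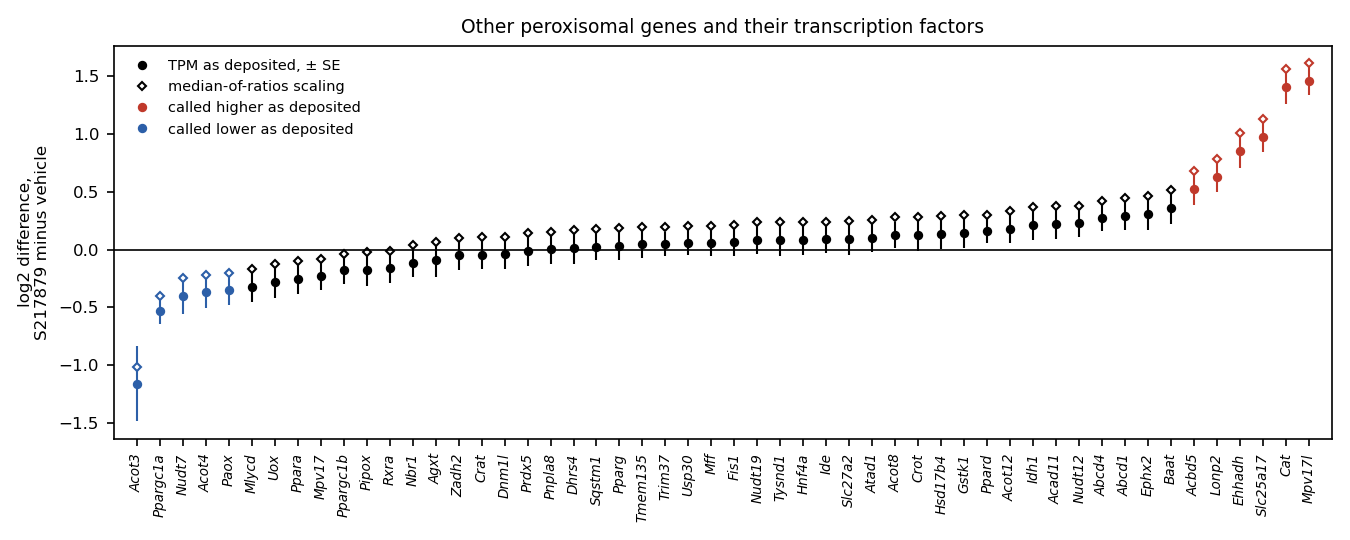
Log2 difference, S217879 minus vehicle, for 52 of the 56 tested further peroxisomal genes and transcription factors, ordered by the deposited value. Filled circles with bars are deposited values ± SE and open diamonds are values after median-of-ratios scaling. Mpv17l, Cat, Slc25a17 and Ehhadh lie at the right end and Acot3 and Ppargc1a at the left.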

How the data were processed

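The authors deposited 1 table of TPM values, 49315 genes by 20 libraries, each with the same total. The labels' protocols name a kit for lipid-rich tissue (extraction) and a stranded polyA kit (libraries). The tools per the submitters' processing notes are STAR 2.5.2b, Subread 1.5.2, featureCounts and Trimmomatic 0.36, with the build GRCm38. What each did, whether strand was used and how reads matching several genes were treated, not given in the sources used here, remains unknown. TPM keeps no depth, so no counting interval can be given, and very abundant genes lower the values of the rest.

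Columns were matched to samples by animal number, and 0 columns were left unmapped. Values were tested as log2(TPM + 0.5) with limma 3.58.1 in R 4.3.3 (eBayes, trend and robust, no term but the group, and a Benjamini-Hochberg adjusted p under 0.05). Fold changes are on that scale, which understates changes of low genes. The steps were tested on simulated data. Members and lists were chosen with earlier results of these data known. All 34 members are described. Of the further genes, Ehhadh, Hsd17b4, Cat and Ppara are named in any case, then the 4 called genes with the largest rise and the 4 with the largest fall. Lonp2, Acbd5 and Paox are named after their values were seen. Coordinates are from GENCODE M21, and shared sequence was counted over 50-base stretches of its transcripts. Promoters are from a RefSeq table. A planned description of targeting signals in the proteins was not made, and a few further genes that the rule names are not reported here. Alternatives were other pseudocounts, minimum values, scalings, weights and tests, and leaving out libraries.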

Additional observations from a re-analysis of the deposited data

Results flagged for a closer look

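Within each group of 10 libraries, the lowest and highest library of each of the 34 genes were compared with the nearest other library. In 68 groups, 5 had a gap larger than Dixon's critical share of the range, where chance flags about 1 in 20 groups. All 5 were in the S217879 group and 4 of them came from S217879 replicate 3. In that library Pex5 was lowest at 54.26 TPM (next 69.93), Pex14 at 13.76 TPM (next 17.22), Pex16 at 60.54 TPM (next 80.71) and Acaa1b at 1877 TPM (next 2622). Its size factor was 0.853, it was the lowest S217879 library for 14 of the 34 genes, and it holds 24.1% of its TPM in rRNA-type genes. Pex7 was highest in S217879 replicate 4, at 17.05 TPM (next 12.87), a library with a size factor of 1.142 and 14.1% of rRNA-type TPM. Left out in turn, neither library changed the calls of Acox2, Hacl1, Pecr or Abcd2. The comparison sets a library against its nearest neighbour, so 2 libraries that lie low together can hide each other. Vehicle replicates 6 and 7 were the 2 lowest of vehicle for 33 of the 34 genes. The lack of vehicle flags therefore says nothing about these 2 libraries.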

How the results depend on the processing

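Acox2, Hacl1, Pecr and Abcd2 kept their direction and call in all 33 alternatives, and the 5 called ratios kept theirs in all 23. The counts of called genes did not. Of the 34 genes, those higher numbered 18 with median-of-ratios scaling, 11 with quantile normalization, 6 without rRNA-type genes, and 16 with median-of-ratios scaling and vehicle replicates 6 and 7 left out, the 1 alternative added after seeing the data. Those lower numbered 8, 17 and 3 in the last 3 of these settings, 15 without the 2 libraries alone, 16 with array weights and 2 with the Wilcoxon test. Leaving out 1 library gave 3 to 4 higher and 1 to 6 lower, with a median from -0.095 to 0.032. Those lower were 6 without vehicle replicate 6, 3 without vehicle replicate 7, 2 without S217879 replicate 3 and 4 without S217879 replicate 4. Over all tested genes (13357 to 13441), the same fits gave 709 to 877 higher and 2637 to 5194 lower. The median over all genes ran from -0.176 to -0.095. Without vehicle replicate 6, 5194 of 13416 genes were lower. Pex5 and Abcd3, uncalled as deposited, had the opposite sign and were called with median-of-ratios scaling, at 0.1451 and 0.1408. Both were called lower after rescaling without rRNA-type genes. Abcd3 was also called lower with quantile normalization, with array weights and without vehicle replicates 6 and 7, so the called direction of both genes depended on the setting. Changes of sign between uncalled values were not counted. Of the further genes (56 tested as deposited, 54 to 63 in the alternatives), 37, 23, 10 and 30 were higher in the same 4 settings (background 30.8%, 26.4%, 7.15% and 26.9%). Those lower numbered 3, 13, 20 and 7 (background 22.7%, 25.0%, 63.1% and 21.1%). They numbered 16 without vehicle replicates 6 and 7 alone (background 54.4%), 20 with array weights (background 59.9%) and 3 with the Wilcoxon test (background 24.1%). Without trend and robust 2 were lower, beside 3194 of all 13401 tested genes. With a minimum of 0.1 TPM or none 3 were lower, beside 4713 of 21416 and 4335 of 36279. Leaving out 1 library gave 6 to 8 higher and 2 to 9 lower (9 without vehicle replicate 6), beside the counts over all genes given above. The pseudocount moved no count. The cause was not tested. With a minimum of 5 TPM, 31 of the 34 genes were tested. No paired analysis was possible because the labels number every animal separately and no number is shared between the groups.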
